A study of Mus musculus with 38 samples.

Results

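Expression of 6 core pluripotency factors, Pou5f1 (Oct4), Nanog, Sox2, Sall4, Utf1 and Lin28a, was followed through the mouse naïve and primed states, through the primed to naïve transition (PNT), and with loss or inhibition of c-Jun. The factors were set by name, with no measured value in the rule, from Ensembl gene identifiers mapped to symbols, and are 6 of 29267 genes in the deposited RNA-seq tables, 28756 of which had a symbol. The 38 libraries fell into 18 groups by their titles. Embryonic stem cells (ESCs, n = 5) were kept naïve in N2B27 medium with the inhibitors PD0325901 and CHIR99021 and LIF, and epiblast stem cells (EpiSCs, n = 4) were primed cells kept in Activin A and bFGF. kEpiSCs (n = 2) were an EpiSC stable line carrying Klf4 on a lentivirus, selected with G418, with Klf4 under the CAG promoter. In the PNT these cells were moved to iCD1 medium and sampled on day 1, day 2 and day 3 (n = 2 each), or moved to iCD1 with the JNK inhibitor SP600125 (JNKi, n = 2 on day 1, 3 on day 2 and 2 on day 3). The dose of each JNKi library is not stated in the sources used here. kiPSCs (n = 2) were induced pluripotent stem cells, named as the end point of the transition. A further set started from ESCs, wild type (WT) or with c-Jun deleted by a pair of CRISPR guides (JunKO), which had been induced to EpiSCs (iEpiSC, n = 1 each). The kiEpiSC libraries of both genotypes (n = 1 each) carry no day in their labels. They were treated here as the untransitioned cells of that set. The k was read as the Klf4 transgene, as in kEpiSC, though the sources used here do not define kiEpiSC. On day 3, kiEpiSCs kept in iCD1, with or without JNKi, gave 2 libraries per genotype and medium. The study's methods describe an Oct4-GFP reporter (OG2) in the lines, so controls and treated cells share it. A strain, CBA/CaJ X C57BL/6J, is labelled for ESC replicates 1 and 2 only. For both ESCs and EpiSCs the methods give a cross of OG2 males with females of a strain not named in that label. How many JunKO clones were used is not stated in the sources used here.

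Oct4, a POU domain transcription factor, and Sox2, an HMG box factor, bind DNA side by side at an octamer and a Sox element, and together with the homeodomain protein Nanog they occupy the regulatory regions of many genes active in pluripotent cells, their own among them. Sall4 is a zinc finger factor that binds Oct4 and Nanog, Utf1 is a chromatin associated protein of undifferentiated embryonic cells, and Lin28a is an RNA binding protein that blocks maturation of the let-7 microRNAs. Naïve ESCs resemble the epiblast before implantation and primed EpiSCs the epiblast after it. Both are pluripotent, and both express Oct4.

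The loci are given on mm10, the build named in the submitters' processing notes, from the GENCODE M21 annotation. Pou5f1 (ENSMUSG00000024406) lies on the forward strand of chromosome 17 from 35506018 to 35510772. Nanog (ENSMUSG00000012396) lies on the forward strand of chromosome 6 from 122707489 to 122714633. Sox2 (ENSMUSG00000074637) lies on the forward strand of chromosome 3 from 34650405 to 34652461 and has 1 exon block. Sall4 (ENSMUSG00000027547) lies on the reverse strand of chromosome 2 from 168748332 to 168767943. Utf1 (ENSMUSG00000047751) lies on the forward strand of chromosome 7 from 139943789 to 139945112, and Lin28a (ENSMUSG00000050966) on the reverse strand of chromosome 4 from 134003330 to 134018841. An exon of Pou5f1 is overlapped by the antisense gene Gm19553 over 317 bases, Sall4 by Gm14261 on the opposite strand over 526 bases, and Lin28a by Gm13061 on the opposite strand over 234 bases. Whether reads were counted by strand is not given in the sources used here, so reads of these partners cannot be told apart from reads of the factors. The partners were listed at 0 to 6.98 TPM (Gm19553), 0 to 2.73 TPM (Gm14261) and 0 to 1.87 TPM (Gm13061), where TPM is a level scaled to transcript length and to the depth of the library.

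The Oct4 and Sox2 elements were searched in the 250 bases before each RefSeq transcription start (GRCm38.p6), where 5 of the 6 factors had an entry. The letters were ATGCAAA for the octamer and CATTGT for the Sox element, on either strand. Of 32817 such windows, 4.13% held the octamer and 10.7% the Sox letters. The joined form, the Sox letters, any base and the octamer in a row, was found in 2 windows, 0.00609% of all, and both were start sites of Nanog whose windows overlap and hold the same copy, which spans bases -75 to -62 before the upstream start. Pou5f1 held the Sox letters at the second of its start sites, from -158 to -153. Sox2 held an octamer from -99 to -93, and Lin28a held the Sox letters from -96 to -91. Utf1 held neither in this window. The AP-1 letters TGANTCA, bound by c-Jun and its partners, were in 6.75% of windows and in none of those of the 5 factors. RefSeq starts can differ from the GENCODE starts given above. A match is a match of letters only, and its absence says only that the letters are not in this window. Shown are the windows of 2 factors higher in naïve cells (Nanog and Sox2) and 2 higher in primed cells (Utf1 and Lin28a), as described below, read 5′ to 3′ on the strand of the gene, with octamer and Sox letters in capitals.
Nanog, chr6:122707239-122707488, forward strand: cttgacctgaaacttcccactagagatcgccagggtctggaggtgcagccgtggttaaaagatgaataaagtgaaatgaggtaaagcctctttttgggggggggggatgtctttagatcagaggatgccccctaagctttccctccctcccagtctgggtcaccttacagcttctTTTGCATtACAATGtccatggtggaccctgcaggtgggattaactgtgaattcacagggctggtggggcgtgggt
Sox2, chr3:34649745-34649994, forward strand: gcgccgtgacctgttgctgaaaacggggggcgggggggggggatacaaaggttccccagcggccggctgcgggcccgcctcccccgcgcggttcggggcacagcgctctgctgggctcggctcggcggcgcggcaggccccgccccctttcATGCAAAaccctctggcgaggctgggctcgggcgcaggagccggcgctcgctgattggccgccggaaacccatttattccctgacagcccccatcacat
Utf1, chr7:139943606-139943855, forward strand: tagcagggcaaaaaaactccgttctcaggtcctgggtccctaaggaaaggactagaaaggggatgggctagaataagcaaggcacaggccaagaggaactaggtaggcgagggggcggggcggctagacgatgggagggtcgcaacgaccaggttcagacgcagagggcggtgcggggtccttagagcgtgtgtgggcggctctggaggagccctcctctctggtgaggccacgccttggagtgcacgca
Lin28a, chr4:134018817-134019066, reverse strand: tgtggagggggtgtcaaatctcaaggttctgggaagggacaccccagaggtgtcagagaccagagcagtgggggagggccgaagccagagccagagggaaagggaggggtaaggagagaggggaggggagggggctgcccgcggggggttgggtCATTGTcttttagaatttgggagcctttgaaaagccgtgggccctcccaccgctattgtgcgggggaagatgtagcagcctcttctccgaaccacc

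Library totals ran from 2.165 to 15.945 M expected counts, highest in kEpiSCs (15.755 to 15.945 M) and lowest in EpiSCs (2.165 to 2.869 M). ESC replicates 1 to 4 stood apart in the gap between the listed length of a gene and its effective length. The gap was 73.48 to 73.49 bases in these replicates and 133.05 to 192.14 bases in the other 34 libraries. The source of the smaller gap was not tested. Tests of the 6 factors that rest on ESCs are therefore also given with replicate 5 alone. Results of the gene lists that rest on ESCs were not checked in this way. Jun, the targeted gene, was at 40.39 to 240.39 TPM in the 6 WT libraries and 5.01 to 14.62 TPM in the 6 JunKO libraries, without overlap. The labelled states matched their markers: the summed level of 8 naïve markers was 6368 to 9876 TPM in ESCs, 6627 to 7672 TPM in kiPSCs, 5.0 to 289 TPM in EpiSCs and 12.02 to 16.06 TPM in kEpiSCs. No naïve marker sum of day 3 cells reached that of ESCs, with 69.3 to 109 TPM in the iCD1 libraries of the PNT course. In bulk libraries, fewer cells of a type and less RNA per cell cannot be told apart, and this holds for every result that follows.

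Pou5f1 was the most abundant of the 6 factors in ESCs, EpiSCs, kEpiSCs and kiPSCs. By group means, Pou5f1 ran from 2010 TPM in kEpiSCs to 39.5 TPM on PNT day 3, a ratio of 50.9, and Nanog from 745 TPM in ESCs to 5.23 TPM on PNT day 3, a ratio of 142. Utf1 had the widest range, from 974 TPM in kEpiSCs to 3.10 TPM on PNT day 3, a ratio of 314. Lin28a ran from 376 TPM in the JunKO-iEpiSC library to 7.49 TPM in kiPSCs, a ratio of 50.2. Sox2 ran from 378 TPM in kiPSCs to 37.5 TPM in EpiSCs, a ratio of 10.1, and was the only factor whose lowest group was a stable state of primed cells. Sall4 varied least, from 116 TPM in ESCs to 35.9 TPM in WT cells on day 3 in iCD1, a ratio of 3.23. Most neighbours in these orders did not differ beyond their spread: among neighbouring groups with replicates, the libraries overlapped in 5 of 9 pairs for Pou5f1, 9 of 11 for Nanog, 8 of 10 for Sox2, 8 of 10 for Sall4, 8 of 12 for Utf1 and 9 of 12 for Lin28a.

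**Figure D1:**
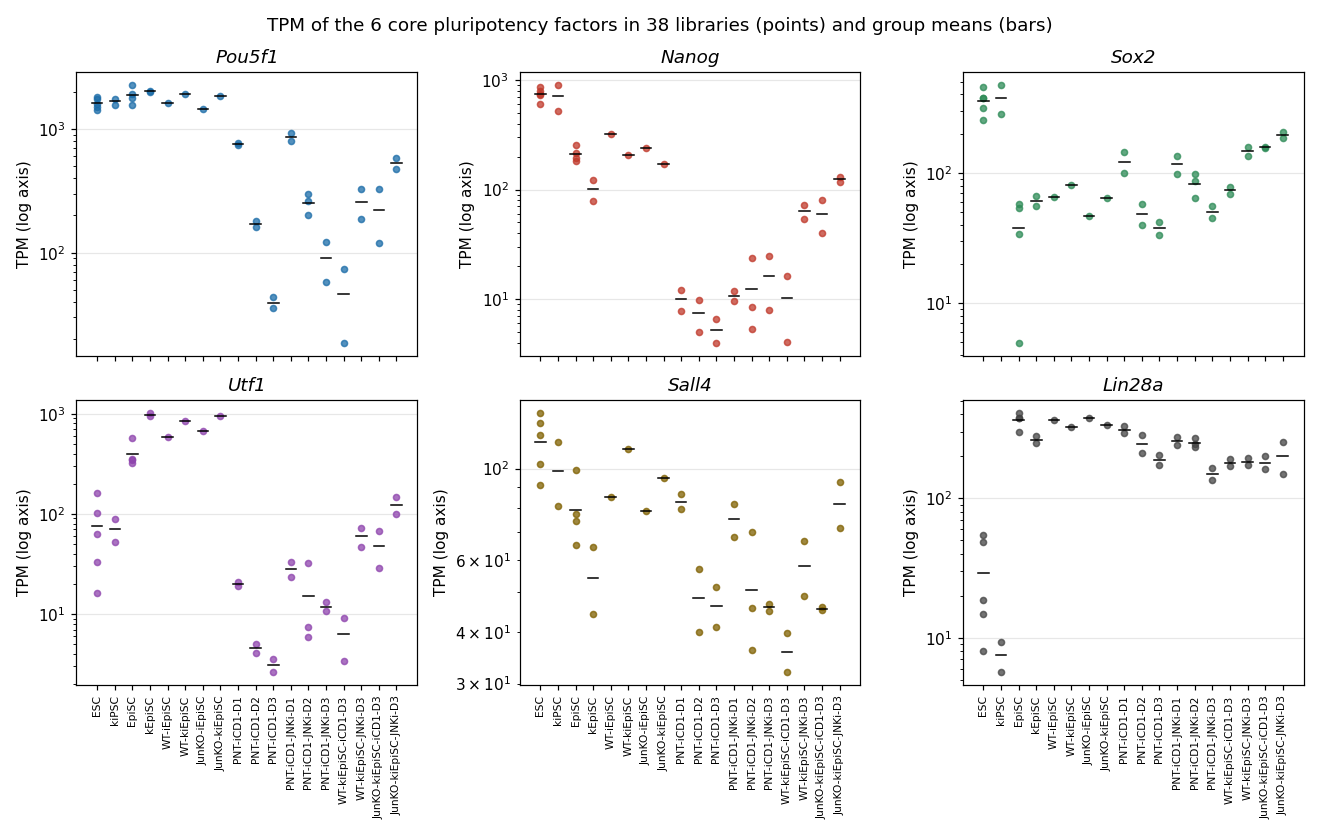
Level of each factor (TPM, log axis) in all 38 libraries, one panel per factor, with points for libraries and bars for the means of the 18 groups. Pou5f1 is between 1416 and 2276 TPM in every ESC, EpiSC and kiPSC library and is lowest on PNT day 3 (39.5 TPM), whereas Lin28a is lowest in kiPSCs (7.49 TPM) and ESCs.

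Summed over the 6 factors, expression was 2518 to 3280 TPM in ESCs, 2629 to 3296 TPM in EpiSCs, 3453 to 3473 TPM in kEpiSCs and 2517 to 3353 TPM in kiPSCs. The sum was 1293 to 1310.2 TPM on PNT day 1, 499.8 to 554 TPM on day 2 and 312 to 328 TPM on day 3. In each ESC library Pou5f1 ranked between 58 and 64 among all genes by TPM, and on PNT day 3 it ranked 4459 and 5231. Lin28a was then the highest of the 6, at ranks 799 and 960.

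The comparison of ESCs with EpiSCs asks how the factors differ between the naïve and primed state. Nanog, Sox2 and Sall4 were higher in ESCs, Utf1 and Lin28a were higher in EpiSCs, and Pou5f1 did not pass the test. Thus 5 of 6 factors were called by edgeR (Benjamini-Hochberg adjusted p under 0.05 over all 13923 genes tested), where 50.9% of all genes tested were called. Libraries of the groups did not overlap in 4 of 6 factors, where 36.5% of genes tested did not. The median log2 fold change of the 6 factors was 0.17, beside 0.02 over all genes.

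Sox2 was at 458, 315, 376, 379 and 254 TPM in the 5 ESC libraries and at 4.92, 53.8, 33.9 and 57.2 TPM in the 4 EpiSC libraries. The groups were far apart, and EpiSC replicate 1 was the lowest library of all for Sox2. Its log2 fold change was 3.25 ± 0.44 (SE, 9.49-fold, edgeR adjusted p = 6.08e-05), and 2.96 without that library. Nanog was at 861, 723, 797, 740.3 and 605 TPM in ESCs and at 195, 253, 182 and 215 TPM in EpiSCs. Its groups did not overlap either, with a log2 fold change of 1.80 ± 0.19 (3.48-fold, edgeR adjusted p = 7.34e-06). Sall4, at 121, 103, 91.2, 129 and 136 TPM in ESCs and 99.2, 65.3, 77.6 and 74.6 TPM in EpiSCs, overlapped between the groups through ESC replicate 3 and EpiSC replicate 1. Its log2 fold change was the smallest called here, 0.56 ± 0.16 (1.47-fold, edgeR adjusted p = 0.0116).

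Lin28a went the other way. It was at 18.7, 14.8, 54.6, 48.7 and 8.08 TPM in ESCs and at 379, 376, 297 and 406 TPM in EpiSCs, so that the lowest EpiSC library was above every ESC library. The log2 fold change was -3.77 ± 0.46 (13.6-fold lower in ESCs, edgeR adjusted p = 2.33e-05). Utf1 was at 33.5, 63.1, 162, 101 and 16.1 TPM in ESCs and 343, 357, 566 and 325 TPM in EpiSCs, with a log2 fold change of -2.33 ± 0.50 (5.03-fold lower in ESCs, edgeR adjusted p = 0.00173). ESCs varied among themselves in both genes, and replicate 5 was the lowest and replicate 3 the highest for each. Pou5f1 was at 1416, 1579, 1799, 1744 and 1498 TPM in ESCs and 2276, 1767, 1931 and 1551 TPM in EpiSCs. These ranges overlapped, with a log2 fold change of -0.21 ± 0.14 (edgeR adjusted p = 0.242).

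With ESC replicate 5 as the only ESC library, the spread came from the other groups of the fit, since a lone library has none of its own and is assumed to vary like them, and the same 5 factors were called. The log2 fold changes were then 1.49 for Nanog, 2.75 for Sox2, 0.81 for Sall4, -4.64 for Utf1 and -5.67 for Lin28a, so the differences of Utf1 and Lin28a were larger by more than 1.5 times in fold. The summed level of 8 fibroblast feeder markers ran from 6.48 to 465 TPM in ESCs and from 16.3 to 124 TPM in EpiSCs, with no marker at 0 in every library, and its part in these results was not tested.

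The comparison of kEpiSCs with EpiSCs asks how the factors differ in the line carrying the Klf4 transgene, in primed medium. The groups also differ in lentiviral infection, G418 selection and library totals (15.755 to 15.945 M against 2.165 to 2.869 M). These cannot be told apart from the transgene. edgeR called 0 of 6 factors at the adjusted threshold, where 1.26% of all genes tested were called. An unadjusted p under 0.05 was reached by 2, and DESeq2 and limma each called 1, Nanog in both. Nanog was at 122 and 78.9 TPM in kEpiSCs, below all 4 EpiSC libraries, with a log2 fold change of -1.01 ± 0.24 (edgeR adjusted p = 0.0655). Utf1 was at 940.5 and 1008 TPM, above all 4 EpiSC libraries, with a log2 fold change of 1.38 ± 0.59 (edgeR adjusted p = 0.307). In all, 4 of 6 factors did not overlap between the groups, where 30.1% of genes tested did not.

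During the transition the steps called lower were day 1 for Nanog, days 1 and 2 for Utf1 and each of the 3 days for Pou5f1. Sall4 was called lower on day 2 and Lin28a on day 3, and Sox2 higher on day 1 and lower on day 2. The steps were not tested against each other, and some of these calls were lost when a library was left out, as given below. The PNT course asks how expression changes after kEpiSCs are moved to iCD1. Against kEpiSCs, edgeR called 4 of 6 factors on day 1, 3 lower and 1 higher, where 46.3% of 14892 genes tested were called. From day 1 to day 2 it called 4, all lower, where 16.5% of genes were called, and from day 2 to day 3 it called 2, both lower, where 12.2% were called. The median log2 fold change of the factors was -0.71, -1.03 and -0.60 in these steps, beside 0.00, -0.01 and 0.01 over all genes. The steps share libraries and are given side by side.

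Utf1 made the largest single change. It was at 940.5 and 1008 TPM in kEpiSCs, 18.9 and 21.0 TPM on day 1, 4.10 and 5.0 TPM on day 2, and 3.55 and 2.65 TPM on day 3. Every day lay below the one before it without overlap. The first step was a log2 fold change of -5.73 ± 0.48 (52.9-fold lower, edgeR adjusted p = 1.90e-07). The step to day 2 was -2.10 ± 0.65 (4.29-fold lower, edgeR adjusted p = 0.0364), and the step to day 3, on 7 and 14 expected counts at day 3, was -0.64 ± 0.96 (edgeR adjusted p = 0.724).

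Nanog was at 122 and 78.9 TPM in kEpiSCs, 7.85 and 12.1 TPM on day 1, 9.73 and 5.03 TPM on day 2, and 6.53 and 3.94 TPM on day 3. Its fall came on day 1, with a log2 fold change of -3.44 ± 0.53 (10.9-fold lower, edgeR adjusted p = 8.37e-05), and the libraries of days 1, 2 and 3 overlapped with those of the neighbouring day. Later steps were -0.39 ± 0.63 and -0.59 ± 0.73 and did not pass the test (edgeR adjusted p = 0.739 and 0.659).

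Pou5f1 fell in every step. It was at 1982 and 2037 TPM in kEpiSCs, 769 and 745 TPM on day 1, 160.1 and 182 TPM on day 2, and 43.4 and 35.5 TPM on day 3. The log2 fold changes were -1.53 ± 0.24 on day 1 (2.88-fold lower, edgeR adjusted p = 8.47e-05), -2.11 ± 0.25 on day 2 (4.33-fold lower, edgeR adjusted p = 2.52e-05) and -2.35 ± 0.27 on day 3 (5.11-fold lower, edgeR adjusted p = 1.07e-04). The spread between the replicates of a day was small beside each of these steps.

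Sox2 rose on day 1 and fell on day 2. It was at 66.2 and 56.1 TPM in kEpiSCs and rose to 100.1 and 144 TPM on day 1, a log2 fold change of 0.87 ± 0.27 (1.83-fold, edgeR adjusted p = 0.0143). That call was lost without kEpiSC replicate 2 (adjusted p = 0.107) or day 1 replicate 2 (adjusted p = 0.173). Sox2 then fell to 40.1 and 57.3 TPM on day 2, a log2 fold change of -1.29 ± 0.28 (2.44-fold lower, edgeR adjusted p = 0.00442), which was lost without day 1 replicate 2 or day 2 replicate 1 (adjusted p = 0.0699 and 0.0724). On day 3 it was at 33.3 and 42.0 TPM, overlapping with day 2.

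Sall4 and Lin28a moved least. Sall4 was at 64.3 and 44.2 TPM in kEpiSCs, 86.6 and 79.5 TPM on day 1, 56.9 and 40.0 TPM on day 2, and 51.7 and 41.2 TPM on day 3. The log2 difference on day 1 was 0.56 ± 0.24 (edgeR adjusted p = 0.0636), without overlap, and it passed with DESeq2 (adjusted p = 0.0467) and with only the groups compared in the edgeR fit (adjusted p = 4.57e-04). The step to day 2 passed the test (log2 fold change -0.76 ± 0.24, 1.70-fold lower, edgeR adjusted p = 0.0398), but not with limma (adjusted p = 0.0782) or when any of the 4 libraries was left out (adjusted p = 0.0635 to 0.272 by edgeR). The day 2 call of Utf1 was lost in the same way (adjusted p = 0.0970 to 0.184). Lin28a was at 278 and 248 TPM in kEpiSCs, 328 and 292 TPM on day 1, 283 and 211 TPM on day 2, and 173 and 203 TPM on day 3. Its step to day 3 was called (log2 fold change -0.61 ± 0.15, 1.53-fold lower, edgeR adjusted p = 0.0178) but not without day 2 replicate 1 (adjusted p = 0.253), day 3 replicate 1 (adjusted p = 0.134) or day 3 replicate 2 (adjusted p = 0.0504).

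**Figure D2:**
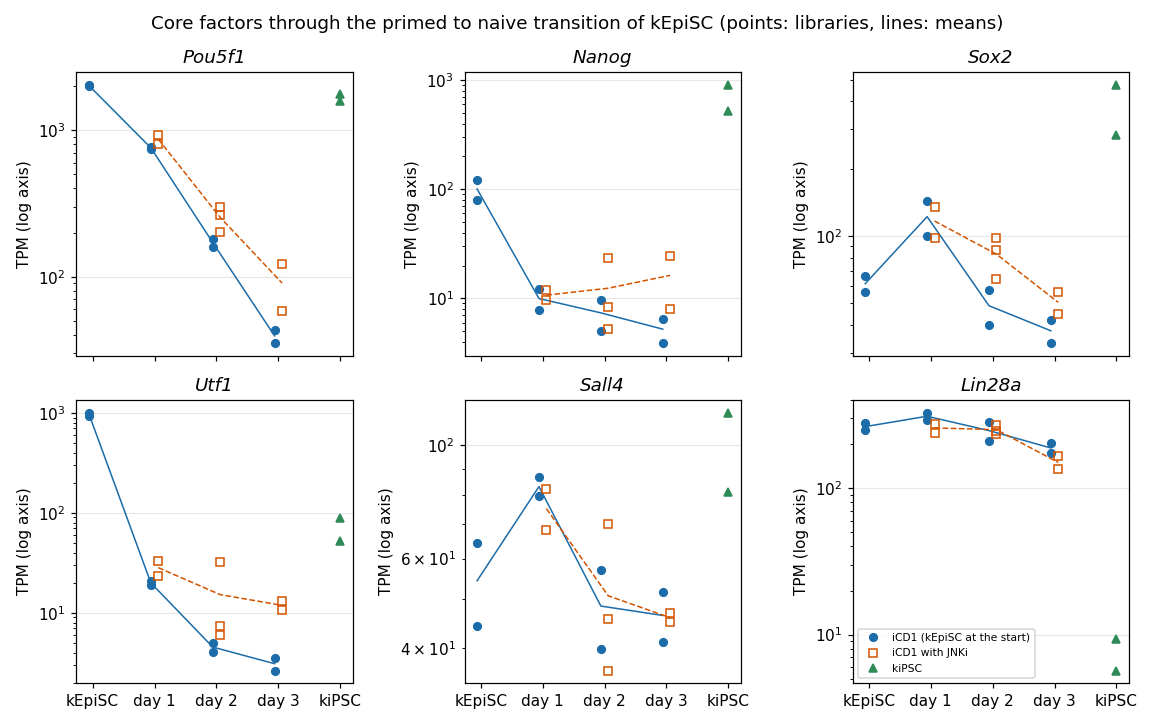
Level of each factor (TPM, log axis) in kEpiSCs, on days 1 to 3 in iCD1 (filled circles) and in iCD1 with JNKi (open squares), and in kiPSCs (triangles), with points for libraries and lines through the means. Pou5f1 falls from 2010 TPM to 39.5 TPM by day 3 in iCD1 and is back at 1668 TPM in kiPSCs, while Lin28a stays high through day 3 and is at 7.49 TPM in kiPSCs.

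Over the whole course from kEpiSCs to day 3, edgeR called 5 of 6 factors, all lower, where 50.6% of genes tested were called. The fall was 355-fold for Utf1, 63.8-fold for Pou5f1, 21.5-fold for Nanog, 1.92-fold for Sox2 and 1.73-fold for Lin28a. The libraries of 5 factors did not overlap, where 77.8% of genes tested did not. The log2 difference of Sall4 was -0.44 ± 0.24 (edgeR adjusted p = 0.146). The call of Sox2 was lost without kEpiSC replicate 1 (adjusted p = 0.0786) or day 3 replicate 1 (adjusted p = 0.102). Markers of other lineages moved with the course: the summed level of 6 mesendoderm markers was 29.5 to 36.3 TPM in kEpiSCs, 442 to 445 TPM on day 1 and 16.1 to 22.4 TPM on day 3, and that of 6 trophoblast markers was 14.4 to 17.5, 286 to 315 and 85.8 to 85.9 TPM. For 6 neural ectoderm markers the sums were 105.64 to 124.18, 107.43 to 113.02 and 25.75 to 35.22 TPM. For 6 primitive endoderm markers they were 17.68 to 27.1, 53.01 to 60.45 and 10.52 to 24.29 TPM. The 8 primed markers summed to 855 to 920 TPM in kEpiSCs, 2396 to 2530 TPM on day 1 and 391 to 416 TPM on day 3. The study's methods start the PNT on serum-coated wells and name no feeders there. The sum of the 8 feeder markers was 18.2 to 22.8 TPM in kEpiSCs, 67.3 to 68.7 TPM on day 1 and 95.5 to 108 TPM on day 3. Their part in the levels of the factors was not tested.

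kiPSCs stood far from the day 3 cells in all 6 factors. edgeR called 6 of 6, 5 higher and Lin28a lower, where 57.9% of genes tested were called. No factor overlapped between the groups, where 72.7% of genes tested did not. Nanog was at 905 and 520 TPM in kiPSCs, 142-fold above day 3 (log2 fold change 7.15 ± 0.63, edgeR adjusted p = 1.21e-07), and Pou5f1 was at 1759 and 1576 TPM, 48.8-fold above it (5.61 ± 0.30, edgeR adjusted p = 5.22e-10). Utf1, at 88.5 and 52.1 TPM, was 24.2-fold higher, Sox2, at 475 and 282 TPM, 11.02-fold higher, and Sall4, at 116 and 80.9 TPM, 2.28-fold higher. Lin28a was at 9.28 and 5.69 TPM, 24.4-fold below day 3 (log2 fold change -4.61 ± 0.19, edgeR adjusted p = 5.67e-11). kiPSC replicate 1 was above replicate 2 in every factor.

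Against kEpiSCs, kiPSCs differed in 5 of 6 factors by edgeR, where 57.5% of genes tested were called. Nanog was 6.61-fold higher, Sox2 5.76-fold higher and Sall4 1.68-fold higher, and Lin28a was 42.1-fold lower and Utf1 14.7-fold lower. The call of Sall4 was lost without kEpiSC replicate 2 (adjusted p = 0.113) or kiPSC replicate 1 (adjusted p = 0.150). The log2 difference of Pou5f1 was -0.39 ± 0.23 (edgeR adjusted p = 0.163), with both kiPSC libraries below both kEpiSC libraries.

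Against ESCs, edgeR called 0 of 6 factors in kiPSCs, where 0.144% of all genes tested were called. Only Lin28a had an unadjusted p under 0.05, and DESeq2 and limma called 0. All 6 factors overlapped between the groups, where 9.27% of genes tested did not. The widest difference was in Lin28a, a log2 fold change of -2.04 ± 0.63 (edgeR adjusted p = 0.606), and it was -0.11 against ESC replicate 5 alone. Against that library Nanog and Utf1 reversed in sign, and the difference of Utf1 grew. Utf1 was at 52.1 and 88.5 TPM in kiPSCs and 16.1 TPM in ESC replicate 5. With all ESC libraries in the fit, the standard errors of the 5 factors other than Lin28a were 0.18 to 0.62. A missed threshold does not show that the levels were alike.

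**Figure D3:**
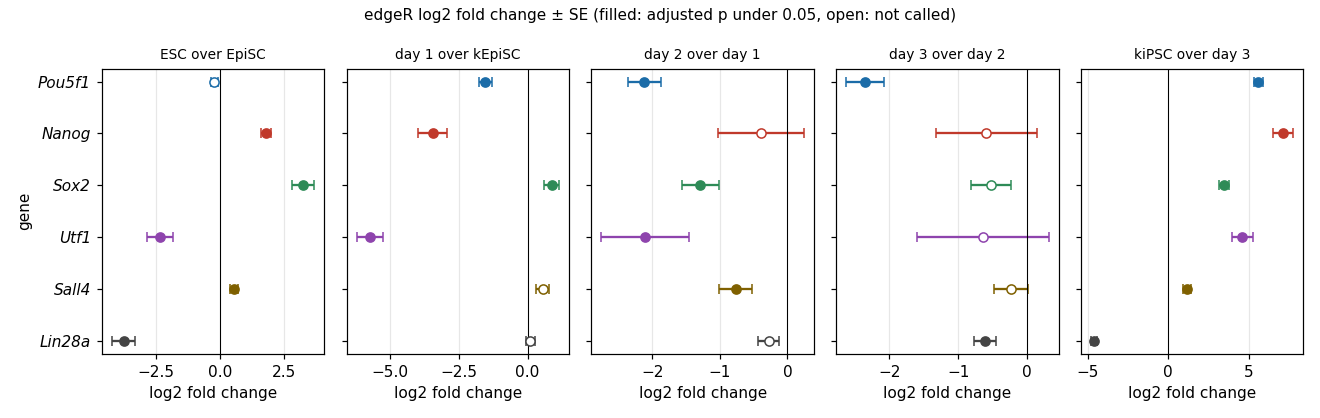
Log2 fold change of each factor by edgeR (points, bars 1 SE) in 5 comparisons: ESC over EpiSC, day 1 over kEpiSC, day 2 over day 1, day 3 over day 2 and kiPSC over day 3. Filled points passed an adjusted p of 0.05. Utf1 has the lowest value on day 1 (-5.73), and Lin28a is the only factor below 0 for kiPSC over day 3 (-4.61).

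The addition of JNKi to iCD1 asks whether inhibiting JNK, the kinase that activates c-Jun, changes the course in kEpiSCs. edgeR called 0 of 6 factors on day 1, 0 on day 2 and 0 on day 3, where 0%, 0.00672% and 0% of genes tested were called. By unadjusted p under 0.05 there were 0, 3 and 2 factors. DESeq2 called 0, 0 and 1, the last being Pou5f1 on day 3, and limma called none on any day.

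Pou5f1 was higher with JNKi than without on all 3 days by the libraries' ranges. It was at 930.0 and 804 TPM with JNKi on day 1, at 297, 201 and 263 TPM on day 2, and at 58.3 and 123 TPM on day 3, against 769 and 745 TPM, 160.1 and 182 TPM, and 43.4 and 35.5 TPM without. The day 3 log2 difference was 1.30 ± 0.28 (2.47-fold, edgeR adjusted p = 1, unadjusted p = 3.28e-04), and it passed the threshold without JNKi day 3 replicate 2, at 1.78 (edgeR adjusted p = 0.0138), where the 1 JNKi library left is assumed to vary like the other groups. Without JNKi day 3 replicate 3 it was 0.68. Utf1 was at 33.1 and 23.6, at 32.4, 7.38 and 5.96, and at 10.7 and 13.1 TPM with JNKi on days 1, 2 and 3. These were also above the libraries without JNKi on each day, with a log2 difference of 1.90 ± 0.85 on day 3 (edgeR adjusted p = 1). Of the JNKi libraries of day 2, replicate 1 was highest for Utf1 and for Nanog, at 23.6 TPM against 8.37 and 5.28 TPM.

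On day 3, 5 of 6 factors did not overlap between cells with and without JNKi, 4 of them higher with JNKi, where 27.7% of genes tested did not overlap and 12.3% were higher with JNKi. The 4 were Pou5f1, Nanog, Sox2 and Utf1, and Lin28a was lower, at 165 and 134 TPM against 173 and 203 TPM. On day 1, Pou5f1 and Utf1 were higher and Lin28a lower without overlap, where 31.9% of genes did not overlap, and on day 2 Pou5f1, Sox2 and Utf1 were higher, where 9.45% of genes were higher in that way. The change of the JNKi difference from day 1 to day 3 was tested directly, and edgeR called 0 of 6 factors and 0% of all genes. Only Pou5f1 had an unadjusted p under 0.05 (log2 difference 1.13 ± 0.37), and DESeq2 and limma called 0. The sum of the 8 naïve markers was 161 to 294 TPM with JNKi on day 3 and 69.3 to 109 TPM without.

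WT and JunKO cells were compared in the primed state and after 3 days, to ask whether c-Jun affects the factors in primed cells or in the transition. In the primed cells, with the iEpiSC and kiEpiSC library of each genotype entered as primed cells, edgeR called 0 of 6 factors, where 0.357% of genes tested were called. By unadjusted p under 0.05 there was 1, Sox2, and DESeq2 and limma called 0. Sox2 was at 65.8 and 80.0 TPM in WT and 46.5 and 64.5 TPM in JunKO, a log2 difference of -0.43 ± 0.14 (edgeR adjusted p = 0.261). Pou5f1 was at 1622 and 1919 TPM in WT and 1441 and 1837 TPM in JunKO, Nanog at 324 and 207 TPM and at 240.3 and 171 TPM, and Utf1 at 586 and 846 TPM and at 664 and 949 TPM, each pair given as iEpiSC then kiEpiSC. Within both genotypes, Pou5f1, Sox2, Sall4 and Utf1 were higher and Nanog and Lin28a were lower in the kiEpiSC library, with 1 library of each line.

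In WT cells 5 factors were lower on day 3 in iCD1 than in primed cells. edgeR called 5 of 6 factors, all lower than in primed WT cells, where 32.1% of 12613 genes tested were called. The primed side joins the WT-iEpiSC and WT-kiEpiSC libraries, while day 3 cells were kiEpiSCs, so the folds are not from the starting line alone. Utf1 fell 117-fold, Pou5f1 39.7-fold, Nanog 26.9-fold, Sall4 2.49-fold and Lin28a 2.05-fold. The log2 difference of Sox2 was -0.07 ± 0.13 (edgeR adjusted p = 0.710). The call of Lin28a was lost without the WT-iEpiSC library (adjusted p = 0.0610) or the WT-kiEpiSC library (adjusted p = 0.0616). The folds depended on the 2 day 3 libraries: the log2 change without replicate 1 and without replicate 2 was -4.63 and -6.63 for Pou5f1, -4.05 and -6.15 for Nanog, and -6.33 and -7.76 for Utf1. The sum of the 8 feeder markers was 11.4 to 19.1 TPM in primed WT cells and 111 to 127 TPM on day 3, and that of the 6 trophoblast markers 7.54 to 10.9 and 74.2 to 94.1 TPM. Other lineages went down: the 6 neural ectoderm markers summed to 115.44 to 153.59 TPM in primed WT cells and 34.18 to 40.72 TPM on day 3. The sums were 32.02 to 54.6 and 4.63 to 16.33 TPM for 6 mesendoderm markers. For 6 primitive endoderm markers they were 18.57 to 37.21 and 8.21 to 10.56 TPM. The part of any of these markers in the falls of the factors was not tested.

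In JunKO cells 5 factors were also lower on day 3 than in primed cells, and Sox2 was higher. The primed side was joined in the same way as for WT cells. edgeR called 6 of 6 factors against primed JunKO cells, 5 lower and Sox2 higher, where 29.1% of genes tested were called. Utf1 fell 16.9-fold, Pou5f1 7.52-fold, Nanog 3.54-fold, Lin28a 1.99-fold and Sall4 1.86-fold, and Sox2 rose 2.78-fold (log2 fold change 1.47 ± 0.13, edgeR adjusted p = 4.58e-05). Without either primed JunKO library the calls of Nanog, Sall4 and Lin28a were lost, which left 3 of 6. Without day 3 replicate 1 and without replicate 2, the log2 change was -2.35 and -3.82 for Pou5f1, -1.39 and -2.42 for Nanog, and -3.59 and -4.84 for Utf1. Feeder markers summed to 12.6 to 15.4 TPM in primed JunKO cells and 114 to 139 TPM on day 3, and trophoblast markers to 3.69 to 5.23 and 105 to 165 TPM. Neural ectoderm markers summed to 115.62 to 167.31 and 30.65 to 36.66 TPM, and mesendoderm markers to 19.7 to 43.0 and 14.49 to 14.74 TPM. Primitive endoderm markers overlapped, at 15.73 to 25.39 and 10.84 to 22.43 TPM. The part of any of these markers was not tested. The difference between the genotypes in this change was tested directly, and 1 of 6 factors passed, Sox2, at a log2 difference of 1.55 ± 0.19 (edgeR adjusted p = 0.0383), where 0.0159% of genes tested were called. That call was lost whichever of the 8 libraries was left out (adjusted p = 0.0503 to 0.803). The corresponding log2 differences were 2.92 ± 0.57 for Nanog, 2.79 ± 0.59 for Utf1 and 2.40 ± 0.71 for Pou5f1 (edgeR adjusted p = 0.239, 0.296 and 0.586).

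On day 3 in iCD1, 3 of 6 factors were higher in JunKO than in WT cells by edgeR, where 1.7% of genes tested were called. The 3 were Nanog, Sox2 and Utf1, and the median log2 difference of the 6 factors was 1.70, beside 0.01 over all genes. Sox2 was at 68.7 and 77.9 TPM in WT and 158 and 156 TPM in JunKO, a log2 difference of 1.11 ± 0.13 (2.16-fold, edgeR adjusted p = 0.00679). Nanog was at 4.08 and 16.3 TPM in WT and 39.9 and 79.5 TPM in JunKO, 2.54 ± 0.46 (5.82-fold, edgeR adjusted p = 0.0256). Utf1 was at 3.37 and 9.16 TPM in WT, on 6 and 17 expected counts, and 28.6 and 66.7 TPM in JunKO, 2.94 ± 0.51 (7.66-fold, edgeR adjusted p = 0.0239). The genotypes did not overlap in any of these.

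Pou5f1 was at 18.5 and 73.8 TPM in WT and 119 and 324 TPM in JunKO on day 3 in iCD1, also without overlap. Its log2 difference was 2.28 ± 0.54 (4.85-fold, edgeR adjusted p = 0.0723). Sall4, at 32.0 and 39.8 TPM in WT and 46.0 and 45.3 TPM in JunKO, differed by 0.35 ± 0.18 (edgeR adjusted p = 0.486). Lin28a overlapped between the genotypes, at 171 and 190 TPM in WT and 161 and 199 TPM in JunKO, with a log2 difference of 0.02 ± 0.20 (edgeR adjusted p = 0.985). In all, 5 of 6 factors were higher in JunKO without overlap, where 20.6% of genes tested were.

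These calls rested on 2 libraries a group that differed among themselves. Replicate 2 was 3.99 times replicate 1 in Pou5f1 and 4.002 times in Nanog in WT cells, and 2.73 and 1.99 times in JunKO cells, whereas the ratio was 1.13 and 0.989 in Sox2. Without WT replicate 1, edgeR called 0 of the 6 factors (adjusted p = 0.216 for Nanog, 0.141 for Sox2 and 0.269 for Utf1), without JunKO replicate 2 it called 1, Sox2, and without WT replicate 2 the call of Utf1 was lost (adjusted p = 0.0781). Without JunKO replicate 1 it called 4, with Pou5f1 added (adjusted p = 0.0251). Over these 4 fits the log2 difference ran from 1.34 to 3.59 for Pou5f1, 1.86 to 3.94 for Nanog, 2.16 to 3.82 for Utf1 and 1.02 to 1.20 for Sox2. With only the groups compared in the fit, the call of Nanog was lost (edgeR adjusted p = 0.0698). The sum of the 8 naïve markers was 72.9 to 215 TPM in WT and 529 to 985 TPM in JunKO, and that of the 8 primed markers 299 to 368 and 281 to 750 TPM. Their part in the difference was not tested.

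**Figure D4:**
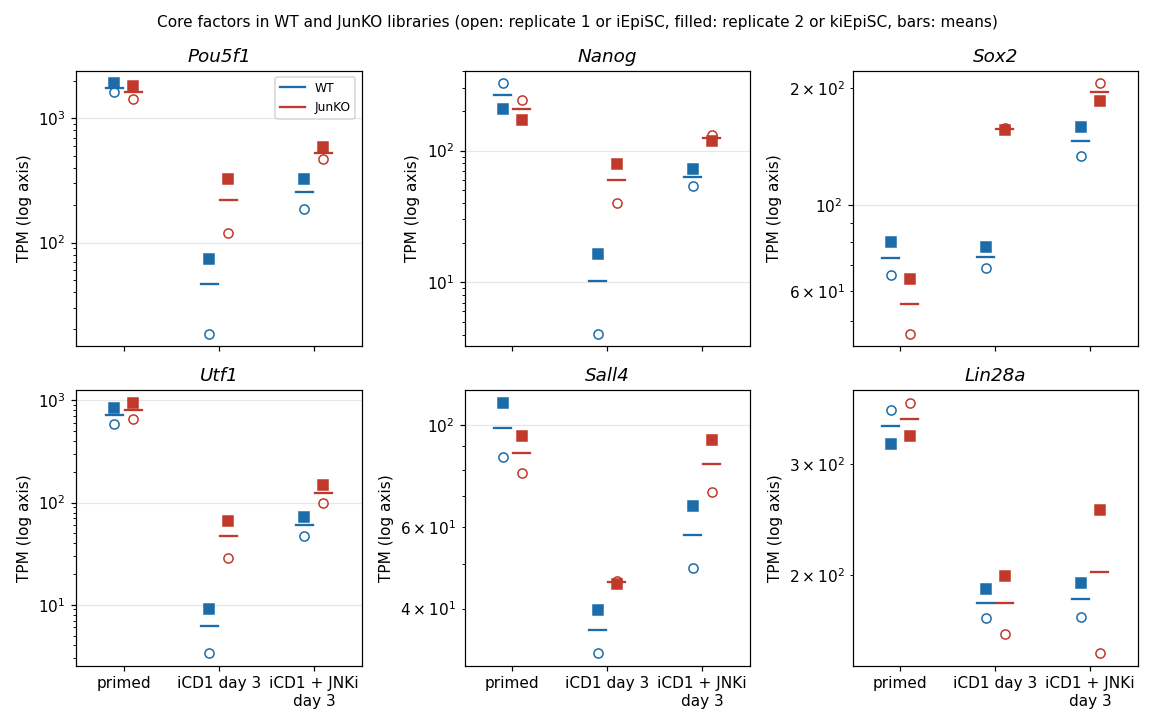
Level of each factor (TPM, log axis) in WT (blue) and JunKO (red) cells in the primed state and on day 3 in iCD1 and in iCD1 with JNKi, with bars for means. Open points are replicate 1 or iEpiSC, and filled points replicate 2 or kiEpiSC. On day 3 in iCD1 both JunKO libraries lie above both WT libraries for Pou5f1, Nanog, Sox2, Sall4 and Utf1, but not for Lin28a (161 and 199 TPM against 171 and 190 TPM).

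In WT cells of this set, Nanog, Sox2 and Utf1 were higher with JNKi. edgeR called 3 of 6 against iCD1 alone, where 0.484% of genes tested were called. Nanog was at 53.5 and 72.6 TPM with JNKi (log2 difference 2.61 ± 0.46, 6.11-fold, edgeR adjusted p = 0.0391), Sox2 at 134 and 159 TPM (0.98 ± 0.13, 1.98-fold, adjusted p = 0.0312 by edgeR), and Utf1 at 47.1 and 72.6 TPM (3.23 ± 0.50, 9.37-fold, adjusted p = 0.0359 by edgeR). All 3 calls were lost whichever of the 4 libraries was left out, and the log2 difference then ran from 1.92 to 4.01 for Nanog, 0.88 to 1.07 for Sox2 and 2.69 to 4.11 for Utf1. Pou5f1 was at 187 and 327 TPM with JNKi, above both libraries without it, with a log2 difference of 2.45 ± 0.54 (5.47-fold, edgeR adjusted p = 0.0882). The comparison uses the same 2 WT libraries in iCD1 as the comparison of genotypes above. The count of factors higher with JNKi without overlap was 5 of 6, where 24.6% of genes tested were.

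In JunKO cells edgeR called 0 of 6 factors for JNKi, where 0.0476% of genes tested were called. By unadjusted p under 0.05 there were 4, DESeq2 called 1, Sall4, and limma called 0. Pou5f1 was at 473 and 588 TPM with JNKi (log2 difference 1.17 ± 0.48), Nanog at 130.3 and 118 TPM (1.00 ± 0.36), Sall4 at 71.6 and 92.7 TPM (0.77 ± 0.18) and Utf1 at 99.3 and 149 TPM (1.28 ± 0.34), with edgeR adjusted p from 0.146 to 0.348. Without JunKO JNKi replicate 1, edgeR called 2, Sall4 and Utf1 (adjusted p = 0.0103 and 0.0389). The count higher with JNKi without overlap was 5 of 6, where 23.3% of genes tested were, with Lin28a the factor that overlapped.

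With JNKi in both genotypes, edgeR called 0 of 6 factors between JunKO and WT, where 0.92% of genes tested were called. By unadjusted p under 0.05 there were 4, and DESeq2 and limma called 0. The log2 differences were 1.00 ± 0.47 for Pou5f1, 0.93 ± 0.36 for Nanog, 0.38 ± 0.13 for Sox2, 0.57 ± 0.18 for Sall4, 0.98 ± 0.33 for Utf1 and 0.05 ± 0.20 for Lin28a. Without JunKO JNKi replicate 1, Sall4 was called (adjusted p = 0.0242). In all, 5 of 6 were higher in JunKO without overlap, where 24.9% of genes tested were. The interaction of genotype and JNKi on day 3 was called in 0 of 6 factors by edgeR and in 0% of genes tested, in 3 by unadjusted p under 0.05, and in 0 by DESeq2 and limma. Its log2 values were -1.95 ± 0.63 for Utf1, -1.61 ± 0.59 for Nanog, -1.28 ± 0.72 for Pou5f1 and -0.74 ± 0.18 for Sox2 (edgeR adjusted p = 0.832 for each).

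By day 3 the sum of the 6 factors was 298 and 407 TPM in WT cells in iCD1, 642 and 892 TPM in WT cells with JNKi, 552 and 871 TPM in JunKO cells in iCD1, and 1131 and 1386.5 TPM in JunKO cells with JNKi. In each of these 4 groups replicate 2 was the higher library. In the primed libraries of this set the sum was 2846 to 3487 TPM.

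Genes long studied as targets of Oct4 and Sox2 are Fgf4, Fbxo15, Lefty1, Spp1, Zfp42, Dppa4 and Gdf3. This list and those below were chosen with earlier results of these data known, so their counts are not independent support. The study itself names Zfp42 and Gdf3 among genes activated in c-Jun knockout cells at PNT day 3. Against EpiSCs, ESCs were higher in 6 of the 7 and lower in 1, with log2 fold changes of 7.74 for Zfp42, 5.73 for Fbxo15, 5.62 for Gdf3 and 4.40 for Fgf4, a growth factor of the inner cell mass, and -2.89 for Lefty1, a Nodal antagonist, where 50.9% of all genes tested were called. From kEpiSCs to PNT day 3, 4 fell, Fgf4 (-5.34), Spp1 (-3.11), Lefty1 (-2.56) and Gdf3 (-2.03), and 1 rose, Dppa4 (1.37), where 50.6% of all genes were called, and the median was -2.03, beside 0.00 over all genes. In kiPSCs all 7 were higher than on day 3, where 57.9% of all genes were called. On day 3 in iCD1, JunKO cells were higher than WT in 6 of 7 and lower in none, with log2 differences of 3.73 for Gdf3, 3.65 for Fgf4, 3.22 for Zfp42 and 2.31 for Fbxo15, a median of 2.31, beside 0.01 and a called share of 1.7% over all genes. With JNKi in WT cells 1 of 7 was called, Zfp42 (3.07), where 0.484% of all genes were. These day 3 calls, and those of the lists below, rest on the same 2 libraries a group as the calls of the factors. Calls of the factors there depended on single libraries, and the list genes were not refitted with a library left out.

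Of 30 partners and cofactors of Oct4, Sox2 and Nanog, 12 were higher and 6 lower in ESCs than in EpiSCs. The orphan receptor Nr0b1 (log2 fold change 12.07), Prdm14 (11.57), the T-box factor Tbx3 (9.79) and the orphan receptor Esrrb (8.28) differed most. From kEpiSCs to PNT day 3, 7 rose and 11 fell, with the largest values in Otx2 (-8.20), a homeodomain partner of Oct4 in primed cells, Tbx3 (6.90), Foxd3 (-6.79) and Zic2 (-4.60). In JunKO cells on day 3 in iCD1, 4 of 30 were higher than in WT, among them Esrrb (2.74), Sall1 (1.16) and Nacc1 (0.87), and none was lower. The medians of the list in these 3 comparisons were 0.23, -0.22 and 0.26, beside 0.02, 0.00 and 0.01 over all genes, of which 50.9%, 50.6% and 1.7% were called.

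The factors' relatives by family (POU, Sox, Sall and Lin28 genes, 12 of 13 tested in the first 2 comparisons) included 3 higher and 7 lower in ESCs than in EpiSCs. Sox15 (5.06) was higher, and Lin28b (-4.26), the paralog of Lin28a, the POU factor Pou3f1 (-4.18) and Sall2 (-2.85) were lower. From kEpiSCs to PNT day 3, 6 rose and 4 fell, with Sox3 at -6.36, Pou3f1 at -6.28, Sall3 at 3.62 and Sox1 at 3.28. Between genotypes on day 3 in iCD1, 1 of 13 was called, Sall1. Over all genes the called share in these 3 comparisons was 50.9%, 50.6% and 1.7%.

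Lin28b followed Lin28a in direction between states, at 1.36 to 4.81 TPM in ESCs and 1.37 to 1.61 TPM in kiPSCs, against 27.1 to 53.5 TPM in EpiSCs, 37.5 to 39.4 TPM in kEpiSCs and 47.2 to 66.5 TPM on PNT day 3. Of 13 genes that let-7 is known to repress, Lin28b included, 2 were higher and 4 lower in ESCs than in EpiSCs, with Hmga2 at -1.77, Arid3b at -1.12 and Igf2bp1 at 0.72. In kiPSCs against day 3, 2 were higher and 8 lower, with Lin28b at -5.14, Hmga2 at -4.31, Plagl2 at -2.43 and Igf2bp2 at -1.24, and a median of -0.44, beside 0.00 over all genes. The called share of all genes was 50.9% and 57.9% in these comparisons. Of the 6 tested genes for let-7 maturation, 1 was higher in ESCs than in EpiSCs, Tut7 (0.51), a terminal uridylyltransferase, and 1 was lower in kiPSCs than on day 3, Tut4 (-1.06), of the same family. The let-7 RNAs themselves were not analysed here.

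Across the 18 group means of log2(CPM + 1), where CPM is the count scaled to the library total, the 6 factors did not share a pattern. The points share culture conditions and libraries, so Pearson's r is a description over 18 groups. It was 0.86 for Pou5f1 with Sall4, 0.85 for Pou5f1 with Utf1, 0.79 for Nanog with Utf1 and 0.78 for Pou5f1 with Nanog. Sox2 and Utf1 had an r of 0.01, Pou5f1 and Lin28a -0.02, and Sox2 and Lin28a -0.72. Among 9777 genes with a mean of at least 10 CPM, those most like each factor were Slc35f2 (0.98), L1td1 (0.97) and Polr3g (0.97) for Pou5f1, Trap1a (0.97), Syngr1 (0.96) and Chchd10 (0.96) for Nanog, and Dppa2 (0.94), Adgre5 (0.92) and Fbxo15 (0.92) for Sox2. For Sall4 they were Taf7 (0.94), Trim28 (0.93) and Rybp (0.91), for Utf1 Ptpn3 (0.96), Sox3 (0.96) and Slc27a2 (0.96), and for Lin28a Setd7 (0.98), Ube2e1 (0.98) and Timm21 (0.97). Over the 16 groups other than ESC and kiPSC, r was 0.87, 0.73 and 0.73 for the 3 genes of Lin28a and 0.86, 0.82 and 0.82 for those of Sox2.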

How the data were processed

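RNA-seq was measured in 38 libraries. Per the labels, RNA was taken with TRIzol and the libraries were sequenced on a NextSeq 500. The submitters' processing notes name bcl2fastq, RSEM, Bowtie2 and mm10, with no versions given in the sources used here. The authors deposited per gene the expected count, the RSEM estimate of reads per gene without normalization, and the TPM, which scales that estimate to effective length and to the library. The FPKM values were not used.

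Expected counts were rounded and tested with edgeR 4.0.16 (R 4.3.3) by the quasi-likelihood F test, with TMM scaling and filterByExpr at a minimum count of 10. The 3 fits held 13 libraries and 13923 genes (ESC, EpiSC, kEpiSC, kiPSC), 17 libraries and 14892 genes (PNT course), and 12 libraries and 12613 genes (WT and JunKO, with a term for line within primed cells). The 3 fits had 9, 9 and 5 residual degrees of freedom. Standard errors were taken as the log2 fold change over the root of F, a gene was called at a Benjamini-Hochberg adjusted p under 0.05 over all genes of its fit, and TPM served for levels. Alternatives were DESeq2 1.42.0, limma 3.58.1 on log2(TPM + 1), RLE scaling, other filters, other sets of libraries, a replicate block and leaving out each library. The statistics were tested on simulated data. The labels do not say that replicates came from separate cultures, so p-values measure only the spread between these samples, which may be technical. No 2 replicates agreed within counting noise. Totals were 2.165 to 15.945 M expected counts a library, and counts under 20, as for Utf1 on day 3 in iCD1 in PNT and WT cells, carry a wide counting error. Expected counts were not whole for Nanog in 35 of 38 libraries, Sall4 in 26, Pou5f1 in 21 and Lin28a in 11, as where RSEM divides reads among loci, and were whole for Sox2 and Utf1. Where leaving out a library left a group with 1, that library is assumed to vary like the other groups.

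The factors and gene lists were chosen with earlier results of these data known. Named genes were the 6 factors, Jun, up to 4 called genes of each list with the largest absolute log2 fold change (or all where 5 or fewer were called), and the 3 genes most like each factor. A called gene of the partner list is not reported here. Promoter windows came from RefSeq (GRCm38.p6), where Sall4 was not matched.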

Additional observations from a re-analysis of the deposited data

Results flagged for a closer look

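Utf1 in EpiSCs had 1 library apart from the others, at 566.37 TPM beside 343, 357 and 325 TPM. The gap to the nearest library was 0.867 of the range, above the 0.829 allowed for 4 libraries, and such a test marks about 1 in 20 groups by chance. Of 12 groups tested, 6 factors in ESCs and in EpiSCs, this was the only 1 marked.

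The change of Sox2 from primed cells to day 3 differed between JunKO and WT cells, with a log2 difference of 1.55 (edgeR adjusted p = 0.0383). The call was lost with RLE scaling (adjusted p = 0.0507), with limma (adjusted p = 0.0709), with all 38 libraries in the fit (adjusted p = 1.00), and whichever of the 8 libraries was left out.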

How the results depend on the processing

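Of 132 values (6 factors in 22 comparisons), 49 were called. All 49 calls were also made by DESeq2, without a filter, with a stricter filter and with the replicate block, 48 with RLE scaling, 48 with only the groups compared, 45 by limma and 35 with all 38 libraries in the fit. Leaving out a library kept 172 of 225 calls, lost 53 and reversed none. Most groups held 2 libraries, and the causes of lost calls were not tested.

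Counts of called factors moved as follows. For kEpiSCs against EpiSCs the count was 1 with DESeq2, limma, the replicate block and only the groups compared. With all 38 libraries it was 1 for day 2 against day 1, 1 for day 3 against day 2, 3 for day 3 against kEpiSCs, and 0 for genotype by transition. With limma it was 1 for day 3 against day 2 and 0 for genotype by transition, and with RLE 0 for the latter. With only the groups compared it was 1 for primed JunKO against WT. With DESeq2 it was 1 for JNKi on PNT day 3 and 1 for JNKi in JunKO cells. Without a filter it was 4 for JNKi on PNT day 2, 3 on day 3, 2 for the JNKi effect of day 3 against day 1, 4 for JunKO against WT with JNKi, 5 for JNKi in WT, 4 for JNKi in JunKO, 3 for genotype by JNKi and 4 for genotype by transition. In the unfiltered PNT and WT and JunKO fits edgeR put no limit on its prior degrees of freedom. With the replicate block it was 4 for JunKO against WT in iCD1 and 4 for JNKi in WT, with Pou5f1 added in both (adjusted p = 0.00599 and 0.00624), 3 for JunKO against WT with JNKi, 3 for JNKi in JunKO and 3 for genotype by transition. Same-numbered libraries correlated at -0.00729 to 0.417 in the WT and JunKO set (10 of 12 pairs over 0.1), -0.162 to 0.51 in the PNT set and -0.0983 to 0.125 in the ESC and EpiSC set, so the numbers were not taken to pair the samples in any set. With 2 libraries in each day 3 group of the WT and JunKO set, each value there appears in 2 mirrored pairs, which are not separate. In the WT and JunKO set each day 3 library correlated best with one of its own number, a hint from the data and not the design. The block changed no other count by over 1.5 times.

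Leaving out 1 library gave counts of 1 to 2 for day 2 against day 1, 1 to 2 for day 3 against day 2, 0 to 1 for JNKi on PNT day 3, 0 to 4 for JunKO against WT in iCD1, 0 to 1 for JunKO against WT with JNKi, 0 to 0 for JNKi in WT, 0 to 2 for JNKi in JunKO, 3 to 6 for JunKO day 3 against primed and 0 to 0 for genotype by transition.

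Values that reversed in sign were uncalled and close to 0 in most cases. For kiPSCs against ESCs they were Pou5f1 (-0.0357 with the replicate block, -0.00192 with only the groups compared), Nanog (0.269 with ESC replicate 5 only) and Utf1 (0.261 with limma, 0.124 with the replicate block, 2.17 with ESC replicate 5 only). With limma they were Sall4 for JNKi on PNT day 3 (-0.00546), Lin28a for the JNKi effect (-0.0657), for JunKO against WT in iCD1 (-0.00556), in primed cells (0.0393) and for genotype by transition (-0.0449), and Sox2 for WT day 3 against primed (0.0109). Lin28a for JunKO against WT in iCD1 was -0.000649 with DESeq2 and -0.000547 with RLE. Without 1 library the reversed values ranged for Pou5f1 from -0.306 to 0.00284 (ESC against EpiSC) and -0.0771 to 0.0982 (kiPSC against ESC), for Nanog from -0.528 to 0.293 (kiPSC against ESC), -0.966 to 0.00567 (day 2 against day 1), -0.204 to 0.414 (JNKi on day 1) and -0.122 to 1.28 (JNKi on day 2), for Sox2 from -0.346 to 0.429 (kiPSC against ESC), -0.364 to 0.216 (JNKi on day 1) and -0.162 to 0.0256 (WT day 3 against primed), for Sall4 from -0.351 to 0.129 (kiPSC against ESC), -0.257 to 0.239 (JNKi on day 2), -0.188 to 0.245 (JNKi on day 3) and -0.0215 to 0.459 (genotype by JNKi), and for Utf1 from -0.601 to 0.391 (kiPSC against ESC). For Lin28a they ranged from -0.197 to 0.257 (JNKi on day 2), -0.0983 to 0.207 (JNKi effect), -0.183 to 0.187 (JunKO against WT in iCD1), -0.370 to 0.377 (JunKO against WT with JNKi), -0.0601 to 0.101 (JNKi in WT), -0.367 to 0.373 (JNKi in JunKO), -0.394 to 0.362 (genotype by JNKi) and -0.162 to 0.208 (genotype by transition).

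Of the 10 genes most like each factor, the 16 groups other than ESC and kiPSC kept 4 for Pou5f1, 3 for Nanog, 6 for Sox2, 3 for Sall4, 2 for Utf1 and 0 for Lin28a, and log2(TPM + 1) kept 6 for Sox2, 6 for Sall4 and 6 for Utf1.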
